A study of Homo sapiens with 6 samples.

Results

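The insulin-like growth factor axis was described here through 7 human genes, IGF1R, INSR, GRB10, IRS1, IRS2, IGFBP3 and IGFBP5, out of 20037 protein-coding genes. For each gene, every peak whose summit lay inside the RefSeq gene span on GRCh38 or within 100 kb of either end was counted, in each of 4 peak lists. The genes were chosen by their role, with the number and summit strength of these peaks in view, so both are given as a description and nothing is tested with them. The peaks came from chromatin immunoprecipitation sequencing (ChIP-seq) of SWI/SNF, a remodelling complex that uses ATP to move and evict nucleosomes. One antibody recognised BRG1, the ATPase subunit encoded by SMARCA4, and the other recognised SMARCC2, a scaffold subunit. The study set MR49F, a prostate cancer line resistant to the androgen receptor antagonist enzalutamide and derived from LNCaP, against LNCaP, an androgen-sensitive prostate cancer line.

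The MR49F cells were grown in 10 µM enzalutamide and the labels name no drug for LNCaP, so the effects of line and of drug cannot be told apart. All cells were fixed with 2 mM disuccinimidyl glutarate for 45 min and 1% formaldehyde for 10 min, and each precipitation used 4 µg of antibody. There was 1 library per line and antibody. No difference between the lines therefore has a replicate check, no p-value was computed, and the 95% intervals below cover counting error only. The 2 input libraries were not analysed here.

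The MR49F lists held 44308 BRG1 and 47615 SMARCC2 peaks, and the LNCaP lists held 36174 BRG1 and 25706 SMARCC2 peaks. Peak strength is given as summit tags, the number of sequenced fragments stacked at the summit, which was recovered from the authors' fold and p-value. Median summit tags were 27 in both MR49F lists, 27 in LNCaP BRG1 and 28 in LNCaP SMARCC2. A missing peak means that the authors' threshold, a q-value of 0.01, was not reached, and not that the protein was absent. The threshold was reached with fewer tags in MR49F: at the background around IGF1R it took 15 BRG1 and 14 SMARCC2 tags in MR49F, against 17 and 19 in LNCaP. As a check on the lines, 9 prostate luminal genes, KLK3 and TMPRSS2 among them, had medians of 17 BRG1 and 16 SMARCC2 peaks in MR49F, against 17 and 11 in LNCaP. For 7 genes of other cell types the medians were 5 and 4 in MR49F, against 6 and 2 in LNCaP. These are peaks, not expression.

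Insulin-like growth factors are secreted peptides that bind the receptor tyrosine kinase IGF1R, and insulin binds its close relative INSR. The activated receptors phosphorylate the docking proteins IRS1 and IRS2, which recruit phosphatidylinositol 3-kinase and so feed the AKT and mTOR pathway that drives growth and survival. GRB10 is an adaptor that binds both receptors and dampens their signal, while IGFBP3 and IGFBP5 bind the ligands outside the cell and control how much reaches the receptor. In prostate, the axis is studied for its exchange with androgen receptor signalling.

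Across the 7 genes, MR49F had 107 BRG1 and 106 SMARCC2 peaks, and LNCaP had 70 BRG1 and 38 SMARCC2 peaks. MR49F thus held 60.5% of the BRG1 peaks at these genes (Wilson 95% interval 53.1 to 67.4%) and 73.6% of the SMARCC2 peaks (65.9 to 80.1%). Over the whole lists its shares were 55.1% and 64.9%. With the 25706 strongest peaks of every list, its shares at these genes were 54.5% (BRG1, 55 against 46 peaks) and 58.2% (SMARCC2, 53 against 38). The genes IGF1R, INSR, GRB10, IRS1 and IGFBP5, 5 of 7, had more peaks in MR49F than in LNCaP with both antibodies, as did 53.8% of all protein-coding genes. None of the 7 had more LNCaP peaks with both, against 3.94% of all genes. These counts turn with list length. With equal lists, 3 of 7 (IGF1R, INSR and GRB10) had the higher count in MR49F for both antibodies and 2 of 7 (IRS1 and IGFBP3) in LNCaP, beside 4212 and 4511 of all genes. With the 10000 strongest peaks, 1 of 7 (GRB10) was higher in MR49F with both and 0 in LNCaP, beside 2878 and 3079 of all 20037 genes. Taking 1 antibody at a time, 6 of 7 had more MR49F BRG1 peaks (58.2% of all genes; the exception was IGFBP3) and 6 of 7 more MR49F SMARCC2 peaks (79.1%; the exception was IRS2). Most of the excess lay at IGF1R and GRB10, which together had 79 of the MR49F BRG1 peaks and 80 of the MR49F SMARCC2 peaks, against 48 and 22 of those in LNCaP.

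**Figure D1:**
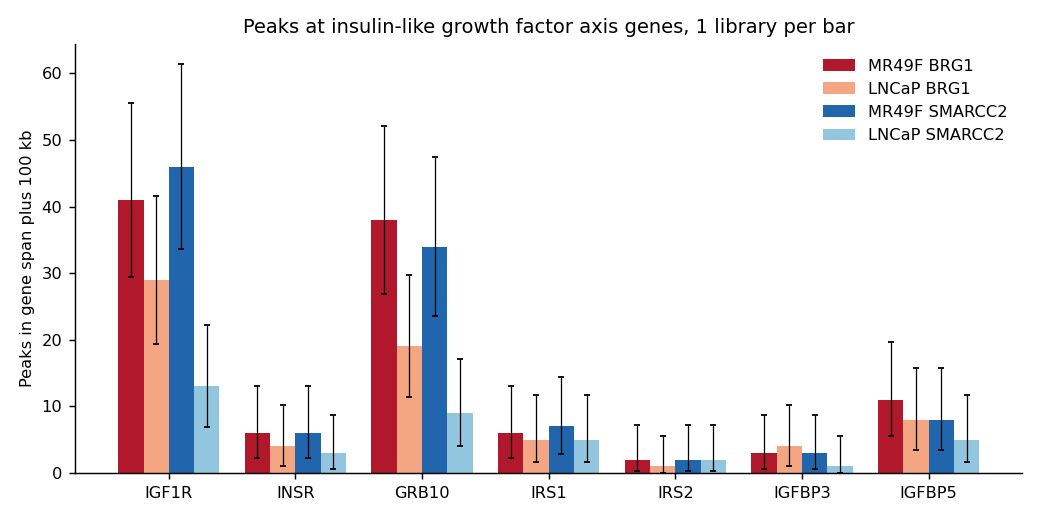
Number of peaks (y axis) whose summit lies in the gene span or within 100 kb of it, for each of the 7 genes (x axis) in each of the 4 lists, 1 library each. Bars are counts and lines are exact Poisson 95% intervals; IGF1R (41 and 46 MR49F peaks) and GRB10 (38 and 34) stand above the other genes, and in both the lowest bar is LNCaP SMARCC2 (13 and 9).

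When peaks sharing at least 1 bp were joined, the 7 genes held 145 regions. Of these, 32 had a peak with both antibodies in MR49F and none in LNCaP (22.1%, against 18.3% of the 65483 regions of the series), and these are called MR49F-only regions. The reverse class, LNCaP-only regions, had 0 members at these genes and made up 3.67% of all regions. A further 29 regions were in all 4 lists (against 22.7% of all regions). The remaining 84 had other combinations, the most frequent being MR49F BRG1 alone (25), MR49F SMARCC2 alone (17), both MR49F lists with LNCaP BRG1 (15) and LNCaP BRG1 alone (13). The class counts depend on the lengths of the lists: with the 25706 strongest peaks of every list, the genes had 19 MR49F-only and 5 LNCaP-only regions, and with a reciprocal overlap of 50% they had 4 LNCaP-only regions. By gene, 6 of 7 had at least 1 MR49F-only region (70.2% of all genes), and IRS1 had none. Since no gene had a LNCaP-only region (21.5% of all genes had one), the same 6 had more MR49F-only than LNCaP-only regions (63.1%) and none had the reverse (6.95%). A region in all 4 lists was present at 6 of 7 (74.0%), the exception being IGFBP3.

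IGF1R, the receptor of insulin-like growth factors 1 and 2, spans 316 kb on the plus strand at chr15:98648539-98964530 (GRCh38). It had 41 BRG1 and 46 SMARCC2 peaks in MR49F, against 29 BRG1 and 13 SMARCC2 peaks in LNCaP. Their exact Poisson 95% intervals were 29.4 to 55.6 and 33.7 to 61.4 in MR49F, against 19.4 to 41.6 and 6.92 to 22.2 in LNCaP (counting error alone, and the LNCaP SMARCC2 list is the shortest). The differences of 12 and 33 peaks were 2 and 7 with equal list lengths, and 2 and 0 with the 10000 strongest peaks of every list. Of its 55 regions, 17 were MR49F-only and 10 were in all 4 lists. No protein-coding gene had more MR49F-only regions than IGF1R, although the gene is long: the 712 genes with a span at least as long had a median of 2. With lists of equal length, IGF1R had 7 MR49F-only and 4 LNCaP-only regions, and with the 10000 strongest peaks of every list it had 1 of each.

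All 17 MR49F-only regions at IGF1R had their strongest summit inside the gene, between 9.28 and 267 kb from its start. They were modest peaks, with 15 to 32 BRG1 tags and 17 to 36 SMARCC2 tags; over all 11990 MR49F-only regions the medians were 25 and 26. Ranked by the weaker of their q-values, the first was chr15:98772366-98773619, 124 kb into the gene, with 31 BRG1 and 30 SMARCC2 tags in MR49F. The next were chr15:98672701-98673490, with 30 and 29 tags, and chr15:98683951-98685153, with 26 and 31 tags. MR49F-only regions thus lay along most of the gene body rather than at its start.

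Regions present in both lines also differed in strength within IGF1R. The strongest in MR49F, chr15:98802702-98806949, lies 155 kb into the gene and had 110 BRG1 and 224 SMARCC2 tags in MR49F, against 26 and 32 tags in LNCaP. On the log2 scale, as MR49F over LNCaP and with the median of the 14882 regions in all 4 lists set to 0 (a shift of 0.14 for BRG1 and 0.20 for SMARCC2), MR49F was higher by 1.94 for BRG1 (exact binomial 95% interval 1.31 to 2.61) and by 2.61 for SMARCC2 (2.07 to 3.19). As large a BRG1 difference was reached by 0.222% of the shared regions, and as large a SMARCC2 difference by 0.0672%. This region is 4248 bp wide and held 2 SMARCC2 peaks in each line, so the summits compared need not lie at the same place. Another 5 shared regions in the gene body were above 0 with both antibodies, and the 3 largest are given here. At chr15:98652704-98656830, 6.62 kb from the start, the tags were 70 and 112 in MR49F against 27 and 35 in LNCaP, log2 differences of 1.23 and 1.48. That region is 4127 bp wide and held 2 LNCaP BRG1 peaks, so the same limit applies to its BRG1 value. At chr15:98686814-98687562 the tags were 51 and 60 in MR49F against 22 and 20 in LNCaP (1.07 and 1.39). At chr15:98787470-98790582 the tags were 72 and 107 in MR49F against 41 and 43 in LNCaP, log2 differences of 0.67 (0.10 to 1.26) and 1.12 (0.59 to 1.66). In the order given, 2.16%, 3.51% and 10.8% of all shared regions had as large a BRG1 difference. For SMARCC2 the shares were 2.06%, 2.59% and 4.58%. These 3, and the shared regions described below that are neither the strongest of a gene nor at its start, were picked after their values were seen.

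Not every shared IGF1R region was stronger in MR49F. Upstream of the gene, chr15:98611211-98613385 had 41 BRG1 and 24 SMARCC2 tags in MR49F, against 52 and 48 in LNCaP, log2 differences of -0.49 (-1.11 to 0.13) and -1.20 (-1.97 to -0.46). Over the 10 shared regions the median log2 difference was 0.54 for BRG1 and 0.21 for SMARCC2, with 6 regions above 0 with both antibodies and 2 below 0 with both. The background around the gene, from peaks within a 10 Mb window and each divided by its list's median background over the autosomes, was 1.04 (BRG1) and 1.02 (SMARCC2) times as high in MR49F as in LNCaP.

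**Figure D2:**
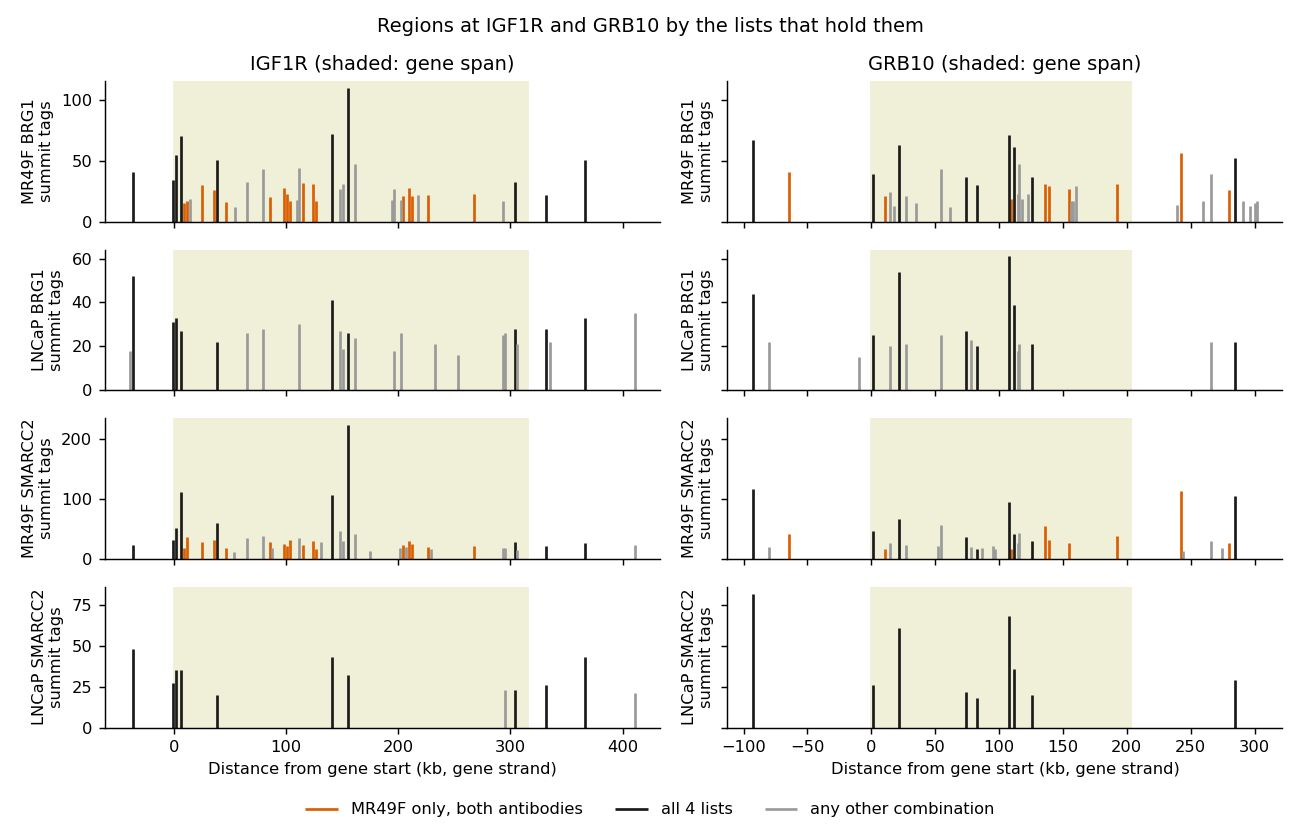
Summit tags (y axis, with its own scale for each list) of every region at IGF1R (left) and GRB10 (right) against distance from the gene start in kb along the gene's strand (x axis), 1 row per list and the gene span shaded. Orange MR49F-only regions (17 at IGF1R, 9 at GRB10) lie between the black regions of all 4 lists, and the tallest IGF1R line is the region at 155 kb with 110 and 224 MR49F tags.

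INSR, the insulin receptor, spans 182 kb on the minus strand at chr19:7112265-7294414. It had 6 BRG1 and 6 SMARCC2 peaks in MR49F, against 4 and 3 in LNCaP, differences of a few peaks whose counting intervals overlap widely. The strongest in MR49F of its 3 shared regions, chr19:7292782-7295209, covers the gene start and had 51 and 51 tags in MR49F against 42 and 35 in LNCaP, with log2 differences of 0.14 (-0.48 to 0.76) and 0.34 (-0.30 to 1.01). An MR49F-only region at chr19:7295818-7296506, with its summit 1.87 kb upstream of the start, had 25 BRG1 and 33 SMARCC2 tags, and a second at chr19:7197861-7199019 had 25 and 15. Within the gene, chr19:7178583-7180368 had 35 and 28 tags in MR49F against 48 and 36 in LNCaP (-0.60 and -0.56). Its fold over local background ran the other way, at 9.96 and 8.54 in MR49F against 5.29 and 3.79 in LNCaP. Over the 3 shared INSR regions the median log2 differences were -0.01 (BRG1) and -0.34 (SMARCC2). With tags divided by local background these medians were 1.20 and 1.499, beside 0.38 and 0.63 over all shared regions. The background around INSR was lower in MR49F than in LNCaP, at 0.801 (BRG1) and 0.840 (SMARCC2) times, and its part in the INSR differences was not tested. The window also holds the near-identical genes MBD3L2, MBD3L2B, MBD3L3, MBD3L4 and MBD3L5, where reads cannot be placed with certainty.

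GRB10, the inhibitory adaptor, spans 203 kb on the minus strand at chr7:50590068-50793453. It had 38 BRG1 and 34 SMARCC2 peaks in MR49F, against 19 BRG1 and 9 SMARCC2 peaks in LNCaP. Only 1 protein-coding gene had a larger BRG1 difference and 5 had a larger SMARCC2 difference. With equal list lengths the differences were 7 and 9 peaks, in place of 19 and 25. Its 47 regions comprised 9 MR49F-only regions, 9 in all 4 lists and 29 others. When the lists were cut the MR49F-only count fell less than at IGF1R: GRB10 had 8 MR49F-only and 1 LNCaP-only regions with equal list lengths, and 4 and 0 with the 10000 strongest peaks.

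The leading MR49F-only region in the GRB10 window, chr7:50550031-50553450, had 56 BRG1 and 114 SMARCC2 tags. Its summit lies inside the neighbouring gene DDC, which encodes aromatic L-amino acid decarboxylase, and not inside GRB10. A shared region inside DDC, chr7:50508032-50509718, had 52 and 106 tags in MR49F against 22 and 29 in LNCaP, log2 differences of 1.10 (0.35 to 1.89) and 1.67 (1.07 to 2.32). In all, 12 of the 47 regions lie downstream of GRB10, so part of its count belongs to the DDC side of the window. Inside GRB10 the leading MR49F-only regions were chr7:50600029-50602295, with 31 and 38 tags, and chr7:50637695-50639248, with 27 and 27 tags.

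The shared region of GRB10 that ranked first by MR49F BRG1 q-value, chr7:50684964-50687637, lies in the middle of the gene, 107 kb from its start. It had 71 BRG1 and 95 SMARCC2 tags in MR49F, against 61 and 68 in LNCaP, log2 differences of 0.07 (-0.44 to 0.59) and 0.28 (-0.18 to 0.75). With SMARCC2 a region upstream of the gene, chr7:50885788-50887725, was stronger in both lines, with 117 tags in MR49F and 82 in LNCaP. The region that holds the gene start, chr7:50791456-50794225, had 39 and 46 tags in MR49F, against 25 and 26 in LNCaP (0.50 and 0.62). Its MR49F summits lay at 1283 bp (BRG1) and 1294 bp (SMARCC2) from the start, but the LNCaP BRG1 summit lay at -153 bp. The BRG1 value thus compares summits at different places, and not strength at the start itself. A further annotated GRB10 start inside the gene lies at the edge of an MR49F-only region, chr7:50781289-50782866, with 21 and 17 tags. All 9 shared regions had a BRG1 difference above 0 and 6 of 9 were above 0 with both antibodies; the medians were 0.46 and 0.31. Unlike IGF1R, GRB10 thus had no shared region inside the gene with a log2 difference above 1. The background around GRB10 was 1.08 (BRG1) and 1.09 (SMARCC2) times as high in MR49F.

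IRS1, the docking protein of both receptors, spans 68.5 kb on the minus strand at chr2:226731312-226799820. Its counts hardly differed, with 6 BRG1 and 7 SMARCC2 peaks in MR49F against 5 and 5 in LNCaP. Larger differences, from 1 library per line and antibody, were seen in the summit tags of 2 distal regions. The first, chr2:226738087-226739599, lies inside the gene 60.9 kb from the start and had 60 and 95 tags in MR49F against 29 and 36 in LNCaP, log2 differences of 0.90 (0.24 to 1.60) and 1.20 (0.63 to 1.80). As large a BRG1 difference was reached by 5.52% of all shared regions, and as large a SMARCC2 difference by 3.88%. The second, chr2:226676527-226678511, lies downstream of the gene, was picked after its values were seen, and had 86 BRG1 and 144 SMARCC2 tags in MR49F. In LNCaP it had 22 SMARCC2 tags and no BRG1 peak, so it counts in neither class above. The region at the gene start, chr2:226799050-226800314, was similar in both lines, with 29 and 24 tags in MR49F and 22 and 24 in LNCaP. With equal list lengths the count differences of IRS1, MR49F minus LNCaP, were -1 for BRG1 and -2 for SMARCC2, and the background around it was 1.06 and 1.07 times as high in MR49F. That background was 1.20 and 1.26 times as high with a window of 4 Mb, and 0.997 and 1.02 times with 20 Mb.

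IRS2, the second docking protein, spans 33.9 kb on the minus strand at chr13:109752695-109786583 and had the fewest peaks, 2 BRG1 and 2 SMARCC2 in MR49F against 1 and 2 in LNCaP. Its start lies in chr13:109786250-109787856, with 26 and 28 tags in MR49F against 21 and 20 in LNCaP (0.16 and 0.29 on the log2 scale). Its other MR49F region, chr13:109730149-109731114, lies downstream of the gene and was MR49F-only with 22 BRG1 and 37 SMARCC2 tags. The background around IRS2 was 1.10 (BRG1) and 0.816 (SMARCC2) times as high in MR49F. These values depended on the window: they were 0.595 and 0.760 with 4 Mb, and 1.10 and 0.925 with 20 Mb.

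IGFBP3, the main carrier of insulin-like growth factors in blood, spans 9.03 kb on the minus strand at chr7:45912245-45921272. It had 3 BRG1 and 3 SMARCC2 peaks in MR49F, against 4 BRG1 and 1 SMARCC2 peaks in LNCaP, so the antibodies ran in opposite directions and no region was in all 4 lists. One MR49F-only region, chr7:45920199-45921727, covers the gene start, with 36 BRG1 and 26 SMARCC2 tags at its highest summits. The 4 LNCaP BRG1 peaks, of 20 to 24 tags, lay elsewhere, the nearest 3.0 kb upstream of the start. Of the 7 genes, IGFBP3 was the only one whose span began in an MR49F-only region and in no LNCaP peak. That region was weak, with a −log10 q-value of 3.49 for SMARCC2, and did not count as MR49F-only at a −log10 q-value of 5 or more, with equal list lengths or with a reciprocal overlap of 50%. Its BRG1 difference of -1 was 1 with 50 kb of flank, and the background around it was 1.06 (BRG1) and 1.00 (SMARCC2) times as high in MR49F.

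IGFBP5, a binding protein also found bound to extracellular matrix, spans 23.4 kb on the minus strand at chr2:216672105-216695549. It had 11 BRG1 and 8 SMARCC2 peaks in MR49F, against 8 and 5 in LNCaP, and 13 of its 15 regions lay outside the gene. The strongest shared region, chr2:216750474-216752542, 55.5 kb upstream, had 67 and 68 tags in MR49F against 55 and 47 in LNCaP (0.14 and 0.33). MR49F-only regions lay downstream at chr2:216615128-216616586, with 38 and 43 tags, and at chr2:216595722-216598183, with 25 and 31. Part of the window is the neighbouring gene IGFBP2. The gene start itself had SMARCC2 peaks in both lines, of 14 tags in MR49F and 22 tags in LNCaP, and no BRG1 peak. With 50 kb of flank the BRG1 difference, MR49F minus LNCaP, was -1 instead of 3. The background around IGFBP5 was 0.855 (BRG1) and 0.942 (SMARCC2) times as high in MR49F, and its part in the difference was not tested.

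Over the 29 shared regions of the 7 genes, the median log2 difference was 0.31 for BRG1 and 0.31 for SMARCC2. MR49F was above the median of all shared regions with both antibodies in 18 of 29 (62.1%), against 36.4% of all 14882, and below it with both in 4 (13.8%), against 36.5%. The central 95% of all shared regions ran from -1.04 to 1.18 for BRG1 and from -1.07 to 1.39 for SMARCC2. The IGF1R regions at 155 and 6.62 kb lie above both ranges. The shared region inside DDC lies above the SMARCC2 range and the region upstream of IGF1R lies below it, while the other 25 lie inside both ranges. When tags were divided by local background instead, the medians at the genes were 0.80 and 1.02, and those of all shared regions were 0.38 and 0.63.

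**Figure D3:**
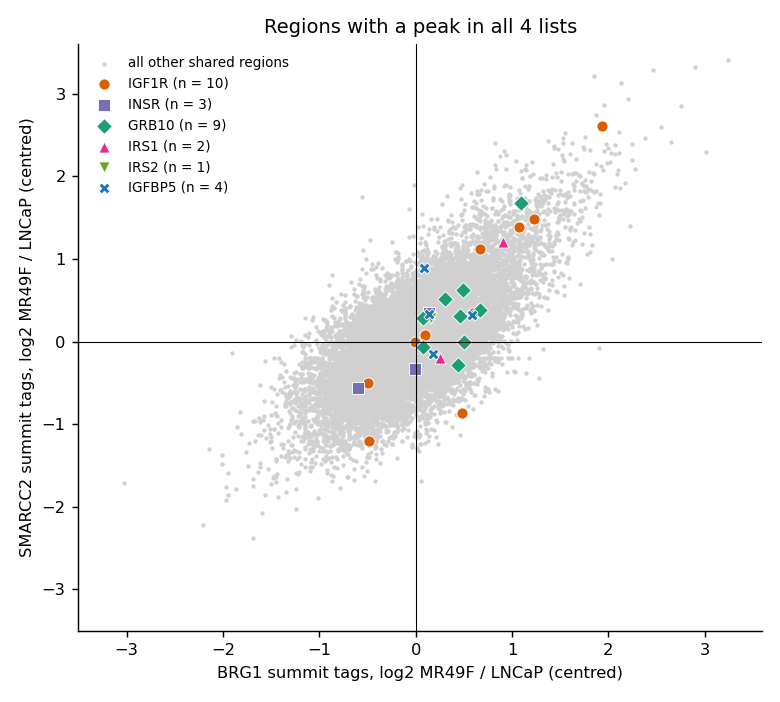
Log2 ratio of summit tags, MR49F over LNCaP, for BRG1 (x axis) and SMARCC2 (y axis) at the 29 regions in all 4 lists, coloured by gene, with 0 as the median of all 14882 such regions. Grey points are all other shared regions. Most coloured points lie at the upper right, above 0 on both axes (18 of 29), and the highest of the coloured points is the IGF1R region at 155 kb (1.94 and 2.61).

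Promoters were examined as the RefSeq windows from 250 bases before to 50 bases after the start (GRCh38.p14, 15843 genes with such a window). A peak overlapped a promoter window of 4 of the 7 genes in MR49F BRG1 (40.0% of all genes), 6 in MR49F SMARCC2 (34.3%), 4 in LNCaP BRG1 (26.8%) and 2 in LNCaP SMARCC2 (13.9%). IRS1 was the only one of the 7 with a promoter peak in all 4 lists (9.37% of all genes). At IGF1R, by contrast, only the MR49F SMARCC2 peak, of 31 tags, reached the window; the region it belongs to, chr15:98646994-98648368, lies just upstream and was in all 4 lists with 34 and 31 tags in MR49F and 31 and 27 in LNCaP. The IGFBP3 window was covered in MR49F by a BRG1 peak of 18 tags and by the SMARCC2 peak of 26 tags, and by no LNCaP peak. The IRS2 window was reached by the LNCaP BRG1 peak, of 21 tags, and by no MR49F peak.

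Of these promoter windows, 4 are printed 5′ to 3′ along the gene's strand, with capitals where a motif or its reverse complement matches. They are IGF1R (chr15:98648289-98648588, plus strand), reached by 1 list, the first GRB10 window (chr7:50793404-50793703, minus strand), reached by 3, IRS1 (chr2:226799771-226800070, minus strand), reached by all 4, and IGFBP3 (chr7:45921223-45921522, minus strand), reached in MR49F alone.
IGF1R: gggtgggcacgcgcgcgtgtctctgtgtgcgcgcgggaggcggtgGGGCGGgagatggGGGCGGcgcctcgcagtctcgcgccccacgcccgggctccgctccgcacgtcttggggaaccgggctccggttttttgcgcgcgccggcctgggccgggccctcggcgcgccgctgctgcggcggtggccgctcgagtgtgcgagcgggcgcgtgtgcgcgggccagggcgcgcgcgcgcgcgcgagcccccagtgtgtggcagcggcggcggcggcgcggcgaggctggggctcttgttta
GRB10: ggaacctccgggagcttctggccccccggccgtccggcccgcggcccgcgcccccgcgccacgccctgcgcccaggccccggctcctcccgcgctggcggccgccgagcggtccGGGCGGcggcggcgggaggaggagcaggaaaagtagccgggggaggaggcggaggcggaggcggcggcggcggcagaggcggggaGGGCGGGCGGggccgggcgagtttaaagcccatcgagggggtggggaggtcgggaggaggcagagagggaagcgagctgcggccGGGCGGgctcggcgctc
IRS1: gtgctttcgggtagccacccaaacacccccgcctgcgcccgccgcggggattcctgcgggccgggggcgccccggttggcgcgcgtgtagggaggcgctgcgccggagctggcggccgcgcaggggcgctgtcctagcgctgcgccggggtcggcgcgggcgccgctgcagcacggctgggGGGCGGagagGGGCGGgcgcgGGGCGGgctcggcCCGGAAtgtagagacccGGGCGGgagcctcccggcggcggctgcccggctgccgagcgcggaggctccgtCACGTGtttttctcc
IGFBP3: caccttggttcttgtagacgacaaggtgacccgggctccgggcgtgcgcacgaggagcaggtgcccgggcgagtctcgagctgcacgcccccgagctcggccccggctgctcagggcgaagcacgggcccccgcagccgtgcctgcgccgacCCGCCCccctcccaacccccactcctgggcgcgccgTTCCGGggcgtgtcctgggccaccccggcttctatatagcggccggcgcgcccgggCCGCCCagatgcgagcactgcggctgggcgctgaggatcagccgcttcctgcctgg
On both strands, 7 motifs were searched: GGGCGG (GC box), TGANTCA (AP-1), AGAACA (a single arm of the androgen response element), TGTTTAC (forkhead), CCGGAA (ETS factors), CACGTG (E-box) and GATAAG (bound by factors of the GATA family). They are held by 56.3%, 6.15%, 11.7%, 2.85%, 21.2%, 8.34% and 5.44%, in that order, of all 22199 promoter windows. The capitals mark 2 GC boxes at IGF1R, 4 at GRB10 (a pair of them overlapping), 4 at IRS1 with 1 ETS and 1 E-box match, and 2 at IGFBP3 with 1 ETS match. INSR had 4 and IRS2 5 GC boxes, while IGFBP5 had none and 1 ETS match; no other motif matched in these windows. A match is a string of letters and not a binding site.

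Base composition set IGFBP5 apart. GC content was between 74.7 and 81.0% in the first window of the other 6 genes and 59.0% at IGFBP5, beside a median of 62.3% over all windows. CpG dinucleotides numbered 55 at IGF1R, 50 at IRS2, 47 at IRS1, 44 at GRB10 and 36 each at INSR and IGFBP3, but 9 at IGFBP5, beside a median of 21.

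The axis has further ligands, carriers and downstream enzymes, and 48 of them were listed by their textbook role and matched in the RefSeq table. Of these, 31 (64.6%) had more peaks in MR49F than in LNCaP with both antibodies, against 53.8% of all genes, 3 (6.25%) had more LNCaP peaks with both, against 3.94%, and 14 did neither. An MR49F-only region was present at 39 (81.2%), against 70.2% of all genes, and a LNCaP-only region at 11 (22.9%), against 21.5%. The median difference, MR49F minus LNCaP, was 1 BRG1 and 4 SMARCC2 peaks per listed gene, and 1 and 2 over all genes.

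The largest sums of differences were at a carrier, a protease that cleaves carriers, an adaptor and a growth brake. IGFBP6, a binding protein that prefers insulin-like growth factor 2, had 13 BRG1 and 17 SMARCC2 peaks in MR49F, against 8 and 3 in LNCaP. PAPPA2, a protease of binding proteins, had 9 and 15 in MR49F, against 5 and 3 in LNCaP. SHC1, which links receptors to the RAS pathway, had 20 and 13 in MR49F, against 15 and 2 in LNCaP. TSC2, which restrains mTOR, had 22 and 16 in MR49F, against 15 and 7 in LNCaP. In each of these genes the SMARCC2 difference exceeded the BRG1 difference, as it did in the medians over all genes (2 against 1).

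At the other end stood 2 catalytic subunits of phosphatidylinositol 3-kinase. PIK3CD had 15 and 19 peaks in MR49F against 20 and 20 in LNCaP, and PIK3CB had 9 and 10 in MR49F against 13 and 11 in LNCaP. The RNA-binding protein gene IGF2BP2 had 10 and 8 in MR49F against 14 and 10 in LNCaP. STC2, an inhibitor of the protease PAPPA, had 4 and 4 in MR49F against 7 and 4 in LNCaP. PIK3CD, PIK3CB and IGF2BP2 were the 3 listed genes with more LNCaP peaks with both antibodies. Windows of IGF2 and INS overlap, and those of IGFBP1 and IGFBP2 overlap the windows of IGFBP3 and IGFBP5, so some peaks count at both.

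**Figure D4:**
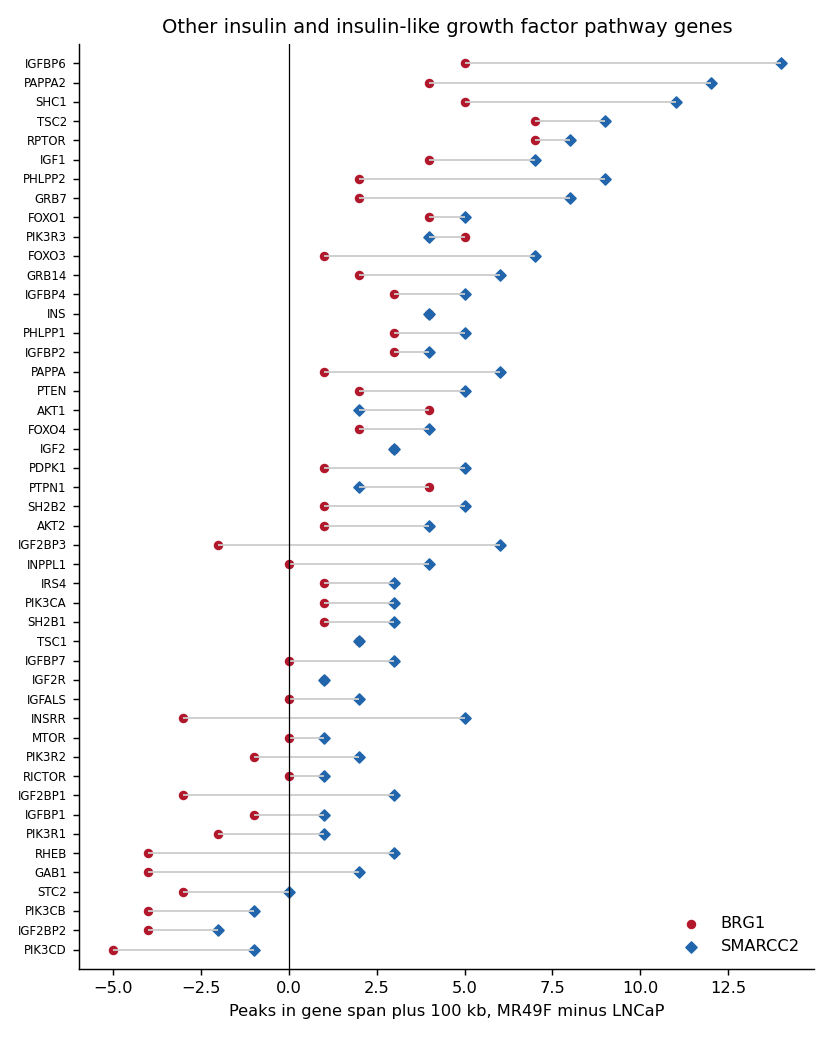
Difference in peaks, MR49F minus LNCaP (x axis, number of peaks), for 47 of the 48 further axis genes (y axis), with a point for each antibody; where both are equal, 1 point hides the other. Most points lie right of 0, IGFBP6 has the largest SMARCC2 value, and PIK3CD, PIK3CB, IGF2BP2 and STC2 lie left of or at 0.

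The genes whose 4 peak counts were most like those of IGF1R, by Euclidean distance of square roots over the 4 lists, were ARHGAP6 (distance 1.36), RANBP2 (1.40) and FOXP1 (1.48). ARHGAP6 had 37 BRG1 and 35 SMARCC2 peaks in MR49F, against 31 and 21 in LNCaP. For GRB10 they were PEX14 (0.880), CASZ1 (1.06) and SLC60A1 (1.15). PEX14 had 29 and 32 peaks in MR49F, against 22 and 10 in LNCaP, and lies near CASZ1 on chromosome 1, so the pair is not independent.

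The window edge matters for GRB10 and for INSR. The outermost counted summit was a GRB10 MR49F BRG1 peak of 17 tags, 98.7 kb from the gene, and the nearest one left out was a GRB10 MR49F SMARCC2 peak of 28 tags at 100.3 kb. INSR, with 6 counted peaks or fewer in each list, had a peak of every list just outside. In MR49F these lay at 100.9 kb (BRG1, 30 tags) and 101.1 kb (SMARCC2, 17 tags). In LNCaP they lay at 104.7 kb (BRG1, 34 tags) and 100.8 kb (SMARCC2, 37 tags).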

How the data were processed

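BRG1 and SMARCC2 ChIP-seq peak lists of MR49F and LNCaP, 1 per line and antibody, were analysed with coordinates on hg38. MACS2 2.1.0, BWA 0.7.10 and SAMtools stand in the submitters' processing notes, with no role or order. The choice of control input, the handling of duplicates and any read filter are not stated there. Peaks were called per library and not on pooled samples, as each deposited list belongs to 1 sample. Each deposited peak has a fold ratio over local background, a −log10 p-value and a −log10 q-value, which are the authors' own. A deposited display score per peak was not used. The lowest deposited −log10 q-value of a list was between 2.00 and 2.01.

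Summit tags were computed as the whole number of fragments that, with a Poisson model of the local background, gives both the authors' fold and their p-value. They came out whole, within 0.02, for all peaks of 3 lists and for all but 1 peak of MR49F SMARCC2, after a scale of 0.971 for LNCaP BRG1 and 0.92 for LNCaP SMARCC2. The step was tested on simulated data. The lowest background of a list was 2.62 and 2.39 tags in MR49F BRG1 and SMARCC2, against 3.22 and 3.17 in LNCaP, and served as a measure of depth. Depth in reads is unknown.

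Genes came from the RefSeq table of GRCh38.p14, and promoter sequences from its promoter table. Regions named were, for each gene, the region in all 4 lists with the highest MR49F BRG1 −log10 q-value, up to 3 MR49F-only and 2 LNCaP-only regions by the lower of both q-values, and those at the gene start. In the list of 48 further genes, the 4 with the largest and the 4 with the smallest summed difference were named, and 1 gene of that list is not reported here singly. For IGF1R and GRB10, the 3 genes with the nearest counts were named. The 7 genes, the further list and the comparisons were chosen with earlier results of these data known. Exon and intron annotation was not used here. Alternatives were other windows, stricter q-values, equal list lengths, other overlap rules and other scalings. Python 3.11.15, NumPy 2.4.6, pandas 2.3.3, SciPy 1.17.1 and matplotlib 3.10.9 were used.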

Additional observations from a re-analysis of the deposited data

How the results depend on the processing

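No paired analysis was possible because each line and antibody had 1 library and the labels carry no replicate numbers; for the same reason no library could be left out. MR49F held the larger share of peaks at the 7 genes with both antibodies under every window, threshold and list length tried. Its whole lists are also the longer ones, with 55.1% of all BRG1 and 64.9% of all SMARCC2 peaks. Lists of equal length gave 55 BRG1 and 53 SMARCC2 peaks in MR49F, against 46 and 38 in LNCaP. The 10000 strongest peaks gave 24 and 21 in MR49F, against 13 and 15 in LNCaP. No interval was computed for these smaller counts. With a −log10 q-value of at least 10, the MR49F shares were 79.0% (BRG1) and 81.5% (SMARCC2), and 8 regions were in all 4 lists. Whole-list shares at that cut are not given here. All genes moved as well: 12354 had more MR49F and 184 more LNCaP peaks with both antibodies, beside 10785 and 789 with all peaks. From 5 upwards these numbers were 12018 and 403. With equal list lengths the SMARCC2 share was 58.2%, with 19 MR49F-only, 5 LNCaP-only and 18 regions in all 4 lists, and more peaks with both antibodies in MR49F at 4212 and in LNCaP at 4511 of all genes. With the 10000 strongest peaks these values were 58.3%, 7, 2, 8, 2878 and 3079. The gene span alone left 17 regions in all 4 lists and 4347 genes with more MR49F peaks, and 10 kb of flank left 6034 genes. LNCaP-only regions numbered 4 with a reciprocal overlap of 50% and 1 with summits within 200 bp.

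Small differences turned round, given as MR49F minus LNCaP peaks. IGFBP3 BRG1 was -1 with 100 kb of flank but 1 with the span alone, 2 with 10 kb, 1 with 50 kb and 1 at a −log10 q-value of 10. IGFBP5 BRG1 was -1 with the span alone, 10 kb and 50 kb, and IGFBP5 SMARCC2 was -1 with the span alone. IRS1 SMARCC2 was -1 with the span alone and 10 kb and -2 with equal list lengths, where IRS1 BRG1 and IGFBP3 SMARCC2 were also -1. Dividing tags by the lowest background of each list, chosen after seeing the data, gave medians of 0.80 and 1.04 over the shared regions of the genes, beside 0.49 and 0.73 over all shared regions. The cause of these changes was not tested. List length and depth differ between the lines, and 1 library per group limits every difference.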

Other observations

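Some of the further axis genes had few or no peaks in LNCaP, and those named here were picked after their values were seen. FOXO1, a transcription factor that AKT keeps out of the nucleus, had 4 BRG1 and 6 SMARCC2 peaks in MR49F, against 0 and 1 in LNCaP. PAPPA, a protease of binding proteins, had 1 and 6 in MR49F, and the docking protein gene IRS4 had 1 and 3 in MR49F, with none in LNCaP at either gene. The ligand gene IGF1 had 5 and 8 peaks in MR49F, against 1 and 1 in LNCaP. All are small counts from 1 library per line and antibody.

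IGFBP4, a further binding protein, had 9 BRG1 and 5 SMARCC2 peaks in MR49F, against 6 and 0 in LNCaP. The SMARCC2 difference was the larger, as in the medians over all genes (2 SMARCC2 peaks and 1 BRG1 peak). RPTOR, a subunit of mTOR complex 1, had 20 and 15 peaks in MR49F, against 13 and 7 in LNCaP, and its 8 MR49F-only regions stood beside 1 LNCaP-only region.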
